A study of Mus musculus with 14 samples.

Results

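Oxidative phosphorylation subunit genes are described here by the histone H3 lysine 27 acetylation (H3K27ac) at their ends in tumour-associated macrophages. The members are the protein-coding mouse genes (build mm10) whose symbols start with Ndufa, Ndufb, Ndufc, Ndufs, Ndufv, Sdha to Sdhd, Uqcr, Cox4 to Cox8 or Atp5. There were 100 such genes among 21887 protein-coding genes. By symbol, 41 belonged to complex I (Nduf), 4 to complex II (Sdh), 8 to complex III (Uqcr), 18 to complex IV (Cox) and 17 to complex V (Atp5). The other 12, with symbols starting Ndufaf or Sdhaf, encode assembly factors, which help to build complexes I and II without being part of them, and were kept as a class of their own.

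Oxidative phosphorylation is the last stage of respiration in the inner mitochondrial membrane. Complexes I and II feed electrons from NADH and succinate to ubiquinone, complex III passes them to cytochrome c, complex IV passes them to oxygen, and complex V (ATP synthase) makes ATP from the proton gradient that the pumping complexes build. Most subunits are encoded in the nucleus and are ranked here, while a few core subunits of complexes I, III, IV and V are encoded in mitochondrial DNA, which carries no histones. In macrophages, the balance between oxidative phosphorylation and glycolysis is known to move with the activation state of the cell. H3K27ac marks active promoters and enhancers and is removed by histone deacetylases.

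All libraries came from CD11b+ tumour-associated macrophages that were sorted from brain tumours of NSG mice, an immunodeficient strain that lacks mature T, B and NK cells. The tumours were T387 glioblastoma (GBM) grafts placed in the brain. The compared mice received pracinostat, a histone deacetylase inhibitor, or DMSO vehicle, the same solvent mixture without the drug. Both were given by oral gavage 4 times a week for 3 weeks, starting 7 days after implantation. The pracinostat dose is labelled as 30 mg/kg, and the text on its preparation says 3 mg/kg. H3K27ac was profiled by CUT&Tag, in which an antibody directs a transposase to cut and tag the DNA next to the mark, in 4 pracinostat and 3 DMSO samples, and non-specific IgG was used on the same numbers of samples. The samples are labelled biological replicates, and the labels do not tie libraries to animals, so a p-value refers to the spread among these samples only.

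The deposited data are lists of summits, the top positions of peaks, each with a −log10 significance score. The pracinostat libraries held 229609 to 289017 H3K27ac summits, and the DMSO libraries held 208401, 53503 and 291042. DMSO replicate 2 therefore stood apart by its short list, and results that rest on it are given without it as well. A gene's value is its highest summit score within 1 kb of either gene end, ranked among all protein-coding genes of the same library and given as a percentile, where a higher value means a higher score. Genes with no summit in the window share the lowest rank, at a percentile of 30.6 in DMSO replicate 2 and of 19.2 to 21.2 in the other 6 libraries. A percentile says where a gene stands within its library, and a shift common to every gene would not appear in it. Each library pools sorted cells, so more cells with the mark and more of the mark per cell cannot be told apart. Macrophage and microglia markers had a median percentile of 82.7 ± 4.79 (SD, n = 7 libraries), and 12 of 12 had a summit in all 7 libraries. The medians of the other lists were 45.9 for endothelial cells, 40.5 for lymphocytes, 38.9 for neutrophils, 30.9 for oligodendrocytes and 21.7 for neurons and astrocytes.

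The 7 promoters that the results turn on are given first, each with 250 bases before and 50 bases after the transcription start, from RefSeq on GRCm38.p6, the assembly that mm10 names. Capitals mark a match to the NRF1 motif CGCANGCG or to the ETS motif CCGGAAGT (the motif of GABPA, also called NRF2) on either strand. NRF1 and GABPA are textbook activators of nuclear genes for respiration. The first 4 genes had a high rank. Cox7a2 ranked low by its gene ends, but the start shown lies outside those windows, and Cox7b2 had no summit in any library. Ndufa7, shown at the first of its 2 listed starts, had the smallest p of all members in the comparison of treatments.
Ndufa6, complex I, chr15:82354242-82354541, minus strand: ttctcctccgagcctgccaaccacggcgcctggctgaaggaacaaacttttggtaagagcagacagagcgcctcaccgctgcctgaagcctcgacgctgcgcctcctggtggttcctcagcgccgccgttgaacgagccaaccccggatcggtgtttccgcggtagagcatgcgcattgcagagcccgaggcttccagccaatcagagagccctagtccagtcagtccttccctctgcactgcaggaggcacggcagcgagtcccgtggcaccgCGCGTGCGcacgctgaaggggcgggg
Uqcrh, complex III, chr4:116075021-116075320, minus strand: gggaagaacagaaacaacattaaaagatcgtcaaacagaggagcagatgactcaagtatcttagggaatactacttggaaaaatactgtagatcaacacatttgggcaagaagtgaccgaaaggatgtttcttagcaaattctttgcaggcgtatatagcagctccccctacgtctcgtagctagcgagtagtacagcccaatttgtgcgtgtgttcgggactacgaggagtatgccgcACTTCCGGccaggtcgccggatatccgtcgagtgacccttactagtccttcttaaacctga
Cox8a, complex IV, chr19:7217567-7217866, minus strand: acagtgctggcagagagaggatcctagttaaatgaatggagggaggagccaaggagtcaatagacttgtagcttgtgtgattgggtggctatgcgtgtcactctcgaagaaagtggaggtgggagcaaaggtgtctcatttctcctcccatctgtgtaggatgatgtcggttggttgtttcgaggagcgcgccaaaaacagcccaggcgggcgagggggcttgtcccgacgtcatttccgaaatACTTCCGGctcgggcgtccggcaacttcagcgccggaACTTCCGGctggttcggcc
Atp5e, complex V, chr2:174464052-174464351, minus strand: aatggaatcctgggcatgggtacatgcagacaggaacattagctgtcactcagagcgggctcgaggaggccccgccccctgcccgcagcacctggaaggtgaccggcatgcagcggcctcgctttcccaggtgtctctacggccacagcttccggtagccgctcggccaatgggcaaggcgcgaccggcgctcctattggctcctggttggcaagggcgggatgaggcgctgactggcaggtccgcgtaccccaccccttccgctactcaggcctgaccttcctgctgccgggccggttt
Cox7a2, complex IV, chr9:79759804-79760103, minus strand: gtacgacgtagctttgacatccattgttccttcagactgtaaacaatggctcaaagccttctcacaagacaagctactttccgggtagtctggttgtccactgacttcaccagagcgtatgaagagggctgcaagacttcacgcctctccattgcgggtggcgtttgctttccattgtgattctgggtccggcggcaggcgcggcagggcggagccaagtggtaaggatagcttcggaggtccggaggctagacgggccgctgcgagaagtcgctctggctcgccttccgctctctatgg
Cox7b2, complex IV, chr5:71548156-71548455, minus strand: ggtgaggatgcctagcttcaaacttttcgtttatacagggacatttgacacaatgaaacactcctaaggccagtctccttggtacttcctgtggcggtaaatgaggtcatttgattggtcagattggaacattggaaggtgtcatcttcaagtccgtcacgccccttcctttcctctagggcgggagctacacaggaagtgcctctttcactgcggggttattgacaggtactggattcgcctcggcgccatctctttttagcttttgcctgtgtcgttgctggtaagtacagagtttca
Ndufa7, complex I, chr17:33824322-33824621, plus strand: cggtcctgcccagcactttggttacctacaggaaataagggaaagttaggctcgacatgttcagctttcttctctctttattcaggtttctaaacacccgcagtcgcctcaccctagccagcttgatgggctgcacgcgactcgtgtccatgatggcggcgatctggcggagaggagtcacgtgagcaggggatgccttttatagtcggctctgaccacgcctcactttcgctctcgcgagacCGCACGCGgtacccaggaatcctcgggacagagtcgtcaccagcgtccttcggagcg

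The 100 genes ranked high in every library. Their median percentile was 81.9, 79.8, 81.8 and 79.6 in pracinostat replicates 1 to 4, and 81.0, 76.9 and 80.8 in DMSO replicates 1 to 3. The median over all protein-coding genes was 50.4 ± 0.785 in pracinostat libraries (SD, n = 4) and 43.7 ± 11.4 in DMSO libraries (SD, n = 3). It was 50.2 ± 1.32 in DMSO replicates 1 and 3, and 30.6 in DMSO replicate 2. A summit lay at 93 to 95 of the 100 genes in pracinostat libraries, and at 93, 77 and 96 of them in DMSO libraries, with the 77 in DMSO replicate 2. Among all protein-coding genes, 59.6 ± 1.45% had a summit in pracinostat libraries and 52.6 ± 12.1% in DMSO libraries, or 59.6 ± 2.85% without DMSO replicate 2. Averaged over 7 libraries, 23 of the 100 genes had a percentile over 90, against 6.15% of all protein-coding genes, and 10 had one under 50, against 53.8%. With IgG, 9 of the 100 genes had a summit in some library, and so did 8.68% of all genes, so the IgG background was similar at both.

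Other housekeeping machines ranked close to them. The median percentile over 7 libraries was 80.3 ± 1.73 for the oxidative phosphorylation genes, 78.9 ± 2.54 for 101 cytosolic ribosomal protein genes, 78.2 ± 5.13 for 40 proteasome subunit genes and 77.9 ± 1.66 for 78 mitochondrial ribosomal protein genes (SD over libraries). These gaps are about as large as the spread between libraries, but all sets were ranked in the same libraries. The members were above the mitochondrial ribosomal protein genes in every library but DMSO replicate 2, where both were at 76.9. Against the other sets the order changed between libraries. Cytosolic ribosomal protein genes were higher in DMSO replicate 3 (81.9 against 80.8), and proteasome genes in DMSO replicate 1 (82.3 against 81.0).

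The complexes differed in rank, with complex IV at the bottom in all 7 libraries. The mean over 7 libraries of the median percentile was 90.4 ± 4.49 for complex II, 86.0 ± 3.99 for complex III, 86.0 ± 2.44 for complex V, 81.1 ± 1.74 for complex I and 54.6 ± 11.1 for complex IV (SD, n = 7). Complex II was the highest in 4 libraries, complex III in 2 and complex V in 1. Complexes III and V could not be ordered, since III was above V in 4 libraries and below it in 3. Complex I was below II and III in 7 of 7 libraries and below V in 6 of 7. The gap between complexes I and IV was 26.5 ± 12.2 percentile points (SD, n = 7) and ran between 16.9 and 52.3, the largest in DMSO replicate 2. Assembly factors stood at 77.2 ± 3.25. No p is given for these orders, because genes of a complex are not replicates.

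**Figure D1:**
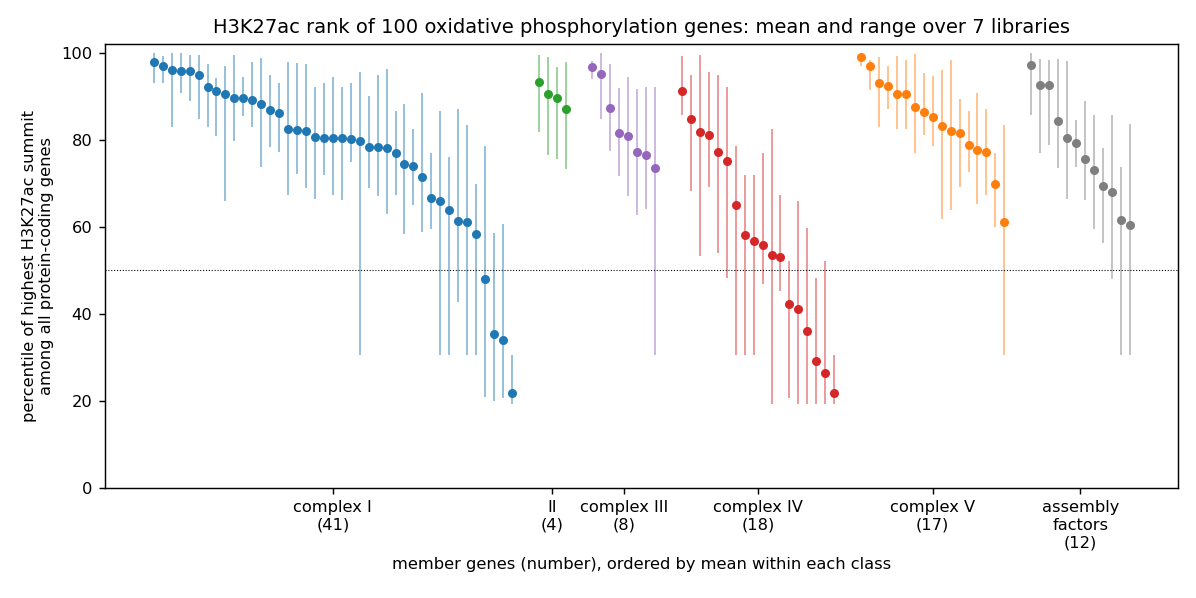
Each point is the mean percentile of 1 of the 100 genes over 7 H3K27ac libraries, and its line runs between the lowest and the highest library (vertical axis, percentile among all protein-coding genes). Genes are ordered by mean within each class. The dotted line is at a percentile of 50. In complex IV 6 genes and in complex I 4 genes have a mean under 50, and none of the other classes has one.

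Complex I, the NADH dehydrogenase, has by far the most members, and its gene stems largely overlapped in rank. The median of gene means was 86.7 for the 3 Ndufv genes, 81.3 for the 8 Ndufs genes, 80.4 for the 15 Ndufa genes, 78.4 for the 13 Ndufb genes and 69.1 for the 2 Ndufc genes. Gene means ran from 61.4 to 97.0 in Ndufs, 33.9 to 97.8 in Ndufa and 21.7 to 96.1 in Ndufb. Only Ndufv (77.0 to 94.8) and Ndufc (63.8 to 74.4), the stems with the fewest genes, did not overlap. The 7 nuclear core subunits, which carry the flavin and iron-sulfur centres or hold the ubiquinone site, had a median of 80.7, and the other 34 members one of 80.3. The core subunit Ndufs8, which holds iron-sulfur clusters, was at 99.2, 94.6, 97.0 and 98.9 in pracinostat libraries, and at 97.3, 93.0 and 99.3 in DMSO libraries. The lowest core subunits were Ndufs7, a cluster-carrying subunit next to the ubiquinone site, at 74.0 ± 6.50 (SD, n = 7), and Ndufv1, the flavin-binding subunit, at 77.0 ± 7.76. Ndufv2 was at 86.7 ± 6.97 and Ndufs1, the largest core subunit, at 80.7 ± 10.5.

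The accessory subunit Ndufa6 (chr15:82350139-82354291), of the LYR protein family, led complex I with 98.0, 98.0, 96.7 and 99.9 in pracinostat libraries, against 99.9, 99.0 and 93.0 in DMSO libraries. No other protein-coding gene has an end within 1 kb of its ends. Ndufb1, Ndufa8 and Ndufb6, 3 further accessory subunits, had means of 96.1 ± 6.23, 95.8 ± 3.38 and 95.7 ± 3.74 (SD, n = 7). Ndufb1 and Ndufa8 had the same highest summit as their neighbours Cpsf2 and Morn5 in all 7 libraries. The highest summit of Ndufb6 lay a median of 9555 bp downstream of its listed start, near Smim27 and Topors, and its mean was 91.6 with windows at listed starts only. At the other end, Ndufb4c (chr15:73809449-73809933) had no summit in any of the 7 libraries, and Ndufb4b (chr19:25033108-25033578), of 471 bp, was at 35.3 ± 16.6. Both share most of their symbol with Ndufb4, which was at 71.5 ± 13.9. The sources used here do not say how reads that match several places were treated, and the values of such copies are uncertain. Ndufa1, a small X-linked accessory subunit, ranged between 20.8 and 78.5 over the libraries.

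Ndufa4, which was first assigned to complex I and is now counted with complex IV, was at 90.8, 80.6, 76.4 and 94.0 in pracinostat libraries and at 90.2, 30.6 and 95.5 in DMSO libraries. The low value is from DMSO replicate 2, where it had no summit. Ndufa4l2, a paralogue that is induced by hypoxia in many cells, was at 33.9 ± 15.1 (SD, n = 7). It was below Ndufa4 in 6 libraries, and both had no summit in DMSO replicate 2.

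Complex II, the succinate dehydrogenase that also works in the tricarboxylic acid cycle, had 4 of 4 genes with a summit in every library. The membrane anchor Sdhc was at 81.9, 92.3, 98.0 and 94.5 in pracinostat libraries, against 99.5, 90.5 and 96.3 in DMSO libraries. The iron-sulfur subunit Sdhb was at 96.9, 98.9, 92.3 and 76.5 in pracinostat libraries, against 93.0, 82.9 and 92.6 in DMSO libraries. The anchor Sdhd averaged 88.9 ± 9.33 with pracinostat and 90.4 ± 6.30 with DMSO, and the flavoprotein Sdha 87.2 ± 10.7 with pracinostat and 86.7 ± 5.82 with DMSO (SD, n = 4 and 3). The groups overlapped for each of the 4 genes, and the genes did not differ from each other beyond their spread.

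In complex III, the cytochrome bc1 complex, the core protein Uqcrc2 (chr7:120635189-120659523) was at 98.2, 97.2, 96.7 and 94.0 in pracinostat libraries, against 96.7, 97.7 and 96.1 in DMSO libraries. Its spread was the smallest of the 100 genes after that of Atp5e, with a mean of 96.6 ± 1.36 (SD, n = 7). The hinge protein Uqcrh followed at 95.1 ± 6.72. The other core protein, Uqcrc1, was at 87.2 ± 8.02, and Uqcrfs1, the Rieske iron-sulfur protein, at 80.8 ± 11.8. The lowest were Uqcr10, a small subunit, at 76.5 ± 11.5 and Uqcrb, a ubiquinone-binding protein, at 73.6 ± 22.0. The large spread of Uqcrb came mainly from DMSO replicate 2, where it had no summit.

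Complex V is the ATP synthase. The epsilon subunit Atp5e (chr2:174461075-174464101), part of the central stalk, had the highest mean of the 100 genes, with 99.8, 99.3, 98.7 and 99.5 in pracinostat libraries and 99.3, 99.0 and 97.0 in DMSO libraries. Atp5j, coupling factor 6 of the peripheral stalk, was at 96.8 ± 2.48 (SD, n = 7). The catalytic subunits Atp5b (beta) and Atp5a1 (alpha) were at 86.3 ± 5.74 and 82.0 ± 13.2. The membrane c subunit, which forms the rotating ring, has 3 genes that encode the same mature protein, and Atp5g2 was at 93.1 ± 6.30, Atp5g1 at 83.2 ± 12.0 and Atp5g3 at 61.1 ± 19.2. The first 2 did not differ beyond their spread, and the listed start of Atp5g3 lies outside its windows. In 7 of 7 libraries a summit lay at each of the 17 genes of complex V but for Atp5g3 in DMSO replicate 2.

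Complex IV, cytochrome c oxidase, ranked lowest as a group, and 5 of its 7 lowest genes were tissue-restricted isoforms, while the restricted Cox7a1 and Cox6a2 ranked higher. The highest gene was Cox8a (chr19:7215158-7217616), the general isoform of subunit VIII, with 90.8, 85.7, 99.3 and 88.2 in pracinostat libraries and 93.0, 94.8 and 87.4 in DMSO libraries. Its muscle isoform Cox8b was at 42.3 ± 11.9, and Cox8c, known from testis, at 29.1 ± 12.3 (SD, n = 7). Cox7b2 (chr5:71442823-71548205), a testis isoform of Cox7b, had no summit in any library, and Cox7b itself was at 55.9 ± 10.3. Cox4i1, the general isoform of subunit IV, was at 77.1 ± 16.1, and the lung isoform Cox4i2 at 36.1 ± 17.1. In these families the general isoform thus ranked above the restricted one.

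The order was less clear, or turned round, in other families. Cox6a1 was at 75.2 ± 16.0 and its muscle isoform Cox6a2 at 58.0 ± 13.7, but Cox6a2 had the same highest summit as its neighbour Itgad, an integrin gene, in 5 libraries. Cox6b1 was at 56.7 ± 14.7 and the testis isoform Cox6b2 at 53.0 ± 6.97, a gap smaller than their spread. Cox6b1 was the higher in every library but DMSO replicates 2 and 3, and it had no summit in DMSO replicate 2. Cox7a1, the heart and muscle isoform of subunit VIIa, was at 81.8 ± 15.9, above the general isoform Cox7a2 at 26.4 ± 12.0. Cox7a2l, a related gene whose product joins complexes III and IV into supercomplexes, was at 84.8 ± 9.25. The 8 tissue-restricted genes together (7 of complex IV and Ndufa4l2) had a median percentile of 42.7 ± 14.7 in pracinostat libraries and 41.9 ± 10.0 in DMSO libraries (SD, n = 4 and 3). Their median was 30.6, the value of genes with no summit, in DMSO replicate 2, and 47.5 ± 3.03 in DMSO replicates 1 and 3.

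**Figure D2:**
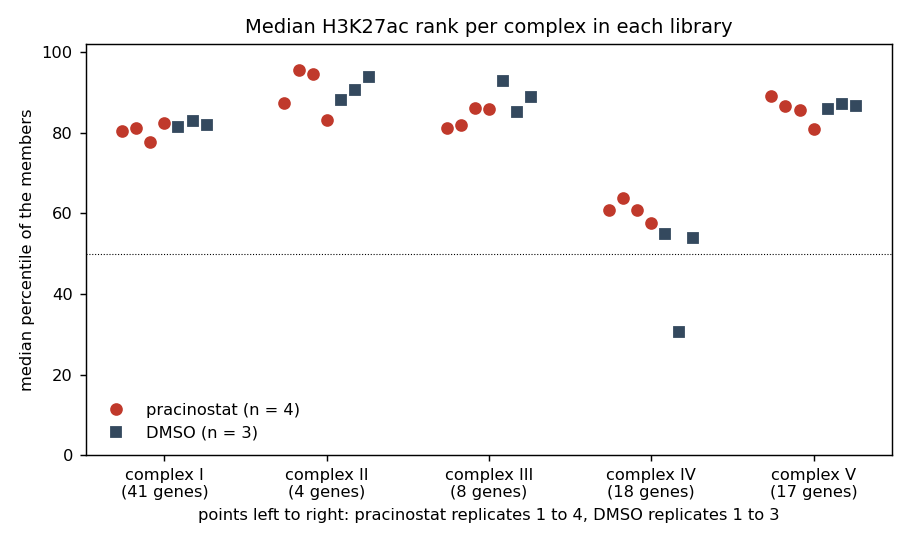
Each point is the median percentile of a complex in 1 library (vertical axis, percentile among all protein-coding genes). Circles are the 4 pracinostat libraries and squares the 3 DMSO libraries, in replicate order from left to right. Complex IV lies below the other 4 complexes in each library, between 30.6 and 63.7.

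The low rank of Cox7a2 came with the placing of the windows. For 82 of the 100 genes a transcription start is listed, and for 4 of them it lies more than 1 kb from both ends of the listed gene span. These were Cox7a2, whose start is 11569 bp inside the gene, Cox5a (3904 bp), Atp5d (3577 bp) and Atp5g3 (1138 bp). With windows at the listed starts only, and all listed genes ranked anew, Cox7a2 was at 83.1, 88.5, 77.4 and 76.6 in pracinostat libraries and at 89.3, 30.4 and 86.1 in DMSO libraries. Its mean was then 75.9, against 26.4 with windows at the gene ends, and the muscle isoform Cox7a1 was at 80.8, so the large gap between the isoforms was not seen at listed starts. Cox5a, a nuclear subunit next to the catalytic core, was at 75.9, against 41.0. The delta subunit Atp5d was at 85.0, against 69.9, and Atp5g3 at 73.9, against 61.1. The testis isoform Cox6b2 went the other way, at 39.4 with starts only, against 53.0. So did Ndufab1, the mitochondrial acyl carrier protein, at 68.3, against 80.2, and Atp5k at 70.3, against 77.1. Cox6b1, the general isoform beside Cox6b2, was at 55.2 with starts only, against 56.7. The highest summit of Ndufab1 lay a median of 14251 bp downstream of its listed start. This alternative was chosen after the data had been seen.

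Complex IV was the lowest complex in 7 of 7 libraries with starts only as well, at 67.9 ± 2.10 for its 13 listed genes, against 60.1 ± 5.89 for the same 13 genes with windows at both ends. Leaving out the tissue-restricted isoforms gave 67.7 ± 5.66 with windows at both ends, again the lowest in 7 of 7 libraries. With both changes made together it was 73.6 ± 4.12 and the lowest in 5 of 7 libraries. For starts only, complex I was at 80.4, complex II at 88.5, complex III at 83.3 and complex V at 85.4. The bottom place of complex IV thus held in most libraries, while the size of its gap depended on the windows and on the restricted isoforms.

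**Figure D3:**
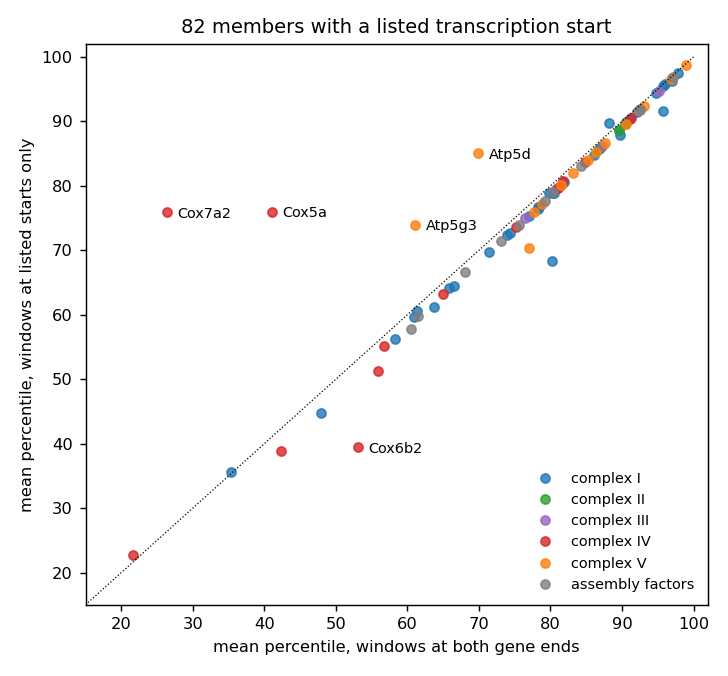
Each point is 1 of 82 genes with a listed transcription start. The horizontal axis is its mean percentile over 7 libraries with windows at both gene ends, the vertical axis the mean with windows at listed starts only, and the dotted line marks equal values. Most genes lie near the line, Cox7a2, Cox5a, Atp5d and Atp5g3 lie above it, and the farthest below it are Cox6b2 and, without a name in the plot, Ndufab1 and Atp5k.

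The 12 assembly factors covered a range of their own. The highest were Sdhaf1, which helps to insert iron-sulfur clusters into Sdhb, at 97.1 ± 5.15, and the complex I factor Ndufaf3 at 92.5 ± 7.28 (SD, n = 7). The lowest were the complex II factors Sdhaf4 at 61.5 ± 15.6 and Sdhaf3 at 60.5 ± 16.3, both without a summit in DMSO replicate 2.

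Many of these genes have a close neighbour. Another protein-coding gene had an end within 1 kb of an end of the gene (a shared window) in 55 of the 100 genes, against 24.8% of all protein-coding genes, in 44 of them the highest summit was the same for both genes in 1 or more libraries, and in 25 of them in all 7. Pairs of this kind included Ndufa7 with Rps28, a ribosomal protein of the small subunit, Atp5j with Gabpa, which encodes the factor that binds the ETS motif above, and Sdhd with Timm8b, a mitochondrial import protein. Uqcrh shared its summit with Lrrc41, and Ndufb5 shared its own with Mrpl47, a mitochondrial ribosomal protein. The acetylation at such pairs cannot be assigned to either gene. The members with a shared window had a median percentile of 84.8 ± 2.44 and those without 75.4 ± 1.40 (SD, n = 7). Among all protein-coding genes the values were 71.6 ± 2.06 with and 31.1 ± 10.2 without a shared window. A shared window thus went with a higher rank, and the members without it still ranked above other genes without it. Whether sharing itself raises the rank was not tested.

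The highest summits of the members lay close to the transcription start. Of 540 highest summits at 81 genes with a listed start, 92.2% lay within 1 kb of it, and 39.6% within 100 bp. Over all genes with a listed start and a summit, 78.5% lay within 1 kb and 24.1% within 100 bp. Among the summits within 1 kb of the start, the median distance was 131 bp for the members and 184 bp for all genes. The libraries were pooled for these values, and the summits of a gene in several libraries are not independent.

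**Figure D4:**
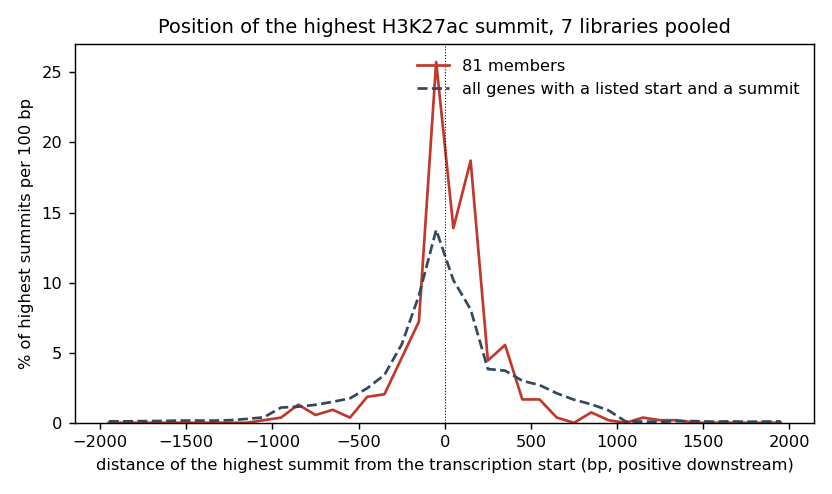
The lines give the share of highest summits per 100 bp (vertical axis, percent) by their distance from the listed transcription start (horizontal axis, bp, positive downstream), for 81 oxidative phosphorylation genes (solid) and for all genes with a listed start and a summit (dashed), over 7 libraries. The solid line is narrower and higher around the start, with 39.6% of the summits within 100 bp, against 24.1% for all genes.

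The promoters of the 82 listed members held the NRF1 motif more often than other promoters. A script searched the 300 bases around each start on both strands for 6 motifs, none of whose letter strings contains another. The NRF1 motif CGCANGCG was in 31 of 82 members (37.8%), against 12.5% of 17492 listed genes and 21.5% of the 6252 listed genes with a summit in all 7 libraries. It was in 10 of 15 complex V promoters, 10 of 35 of complex I, 3 of 5 of complex III, 2 of 3 of complex II and 1 of 13 of complex IV. The YY1 motif AAGATGGCG was in 9.76% of members, against 2.14% of all listed genes and 4.21% of the genes with a summit throughout. The ETS motif CCGGAAGT was in 6.10% of members and 5.69% of all listed genes, so its share was near the background, although Cox8a above holds it at 2 places. The Sp1 motif GGGCGG (47.6% of members, 49.2% of all listed genes), the NF-Y motif CCAAT (42.7 and 42.3%) and the TATA box TATAAA (9 of 82 members, 14.8% of all listed genes) did not stand out either. Set against the genes with a summit throughout, the Sp1 motif (70.5% of these) and the ETS motif (10.9%) were less frequent in the members. Of the promoters printed above, Atp5e, Cox7a2 and Cox7b2 hold none of the NRF1, ETS and YY1 motifs, so the highest-ranked gene has none of them in this window. Members with the NRF1 motif had a median of mean percentiles of 81.5, and those without it 80.2. Their promoters were rich in CpG, with a median of 20 CpG and 58.7% GC, against 13 CpG and 56.3% GC over all listed genes and 22 CpG and 61.3% GC over the genes with a summit throughout. A match describes the letters only and is no evidence of binding.

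To ask whether pracinostat moved these genes in rank, percentiles were turned into normal scores, in which a difference of 1 is about 1 SD of all genes, and were compared with limma over the genes that had a summit in 3 or more of the 7 libraries. Of the 100 genes, 96 passed that filter, and the 4 left out were Ndufb4c, Cox7b2, Cox7a2 and Cox8c. No member passed an adjusted p of 0.05 (limma, Benjamini-Hochberg over 13494 genes), and neither did any other gene (0.0%). The lowest adjusted p of a member in limma was 0.757. At an unadjusted p under 0.05, 3 members were higher with pracinostat (3.13%, against 4.03% of all genes tested) and 1 was lower (1.04%, against 2.12%), so these counts were no larger than the background. In 1 member, Cox6a2, every pracinostat library was above every DMSO library (1.04%, against 3.86% of all genes tested). In 2 members, Ndufa7 and Cox6b2, every pracinostat library was below every DMSO library (2.08%, against 2.63%). The median difference was 0.07 over the 96 members and 0.05 over all genes tested, with 57 of 96 members and 7584 of 13494 genes higher in pracinostat. By group means of percentiles, 59 of the 100 members were higher with pracinostat, against 42.8% of all protein-coding genes. Without DMSO replicate 2, 47 of the 100 were higher, against 38.7% of all protein-coding genes. Both shares over all genes include 5048 genes without an H3K27ac summit in any library, while 2 of the members are such genes. Tied at the lowest rank, such genes count as lower with and without DMSO replicate 2. The members' counts therefore cannot be read against these shares. The median standard error of a member's difference was 0.32. Shifts well above that could also fail to pass, as did Ndufa7 at -1.23 ± 0.34 (SE).

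Ndufa7 (chr17:33824572-33838316), an accessory subunit of complex I, differed most. It was at 73.8, 91.4, 75.1 and 82.4 in pracinostat libraries, against 98.3, 98.7 and 98.0 in DMSO libraries. The groups did not overlap, and the DMSO values lay within 1 percentile point of each other. The difference in normal scores was -1.23 ± 0.34 (SE), with an unadjusted limma p of 0.00101 and an adjusted p of 0.757, so it did not pass. Its highest summit was also that of Rps28 in all 7 libraries, and the 2 genes cannot be told apart in it. The genes with the next smallest p in this direction were Ndufb7 at -0.51 ± 0.29, the c subunit gene Atp5g1 at -0.57 ± 0.32 and the hinge gene Uqcrh at -0.76 ± 0.44, each with a limma adjusted p of 0.816. Without DMSO replicate 2, Ndufb7 was at -0.27. Uqcrh was at 98.7, 84.7, 99.6 and 86.0 in pracinostat libraries, against 97.7, 99.4 and 99.9 in DMSO libraries, and its groups overlapped.

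Among the values higher with pracinostat, 3 of the 4 with the smallest p were genes of complex IV. Cox6a1 was at 66.1, 91.8, 84.6 and 92.2 in pracinostat libraries, against 76.1, 67.2 and 48.2 in DMSO libraries, a difference of 0.69 ± 0.30 (SE, limma adjusted p = 0.775). Uqcrb was at 81.9, 85.2, 77.6 and 92.2 in pracinostat libraries, against 58.0, 30.6 and 89.6 in DMSO libraries, a difference of 0.72 ± 0.33 (limma adjusted p = 0.787). For both, 1 library of a group crossed into the other group, so the groups overlapped. Cox7a1 averaged 88.4 ± 12.3 in pracinostat libraries and 73.0 ± 18.1 in DMSO libraries, a difference of 0.82 ± 0.39 (limma adjusted p = 0.804). Cox6c, a small structural subunit, averaged 63.0 ± 16.5 in pracinostat libraries and 40.8 ± 28.1 in DMSO libraries, a difference of 0.62 ± 0.33 (limma adjusted p = 0.816). None of the 4 passed, and the DMSO spread was wider than the pracinostat spread in each. Single libraries weighed on 3 of these differences. Uqcrb was at 0.30 without DMSO replicate 2 and 1.19 without DMSO replicate 3, Cox6c at 1.05 without DMSO replicate 1 and 0.31 without DMSO replicate 3, and Cox7a1 at 0.45 without pracinostat replicate 1 and 0.52 without DMSO replicate 1.

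**Figure D5:**
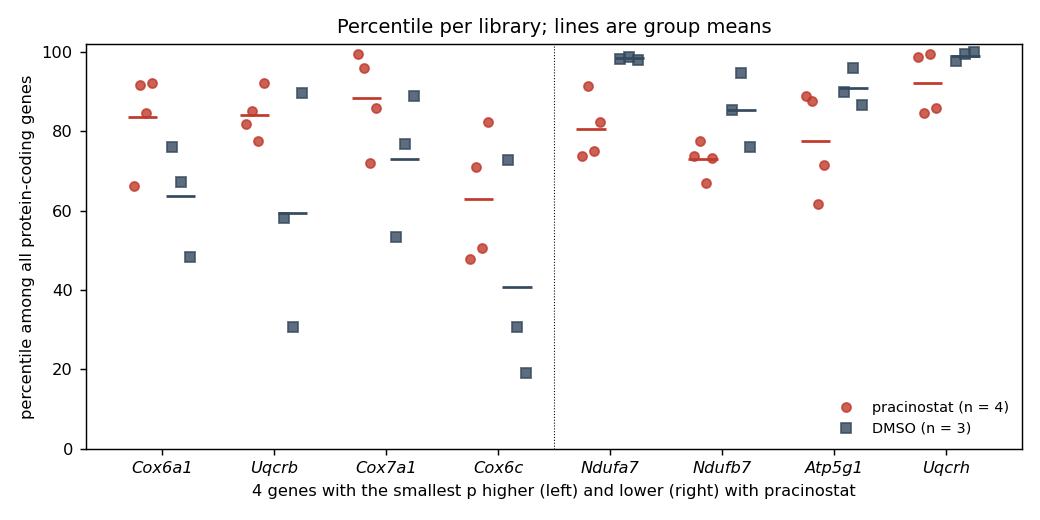
Percentile in each library (vertical axis) of the 4 genes with the smallest p in each direction, higher with pracinostat to the left of the dotted line and lower to its right. Circles are the 4 pracinostat libraries, squares the 3 DMSO libraries, and bars the group means. Ndufa7 is the 1 gene shown whose groups do not overlap, with means of 80.7 and 98.3.

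By complex, the fitted difference was higher with pracinostat in 12 of 15 tested genes of complex IV (median 0.26), 23 of 40 of complex I (0.03), 2 of 4 of complex II (0.06), 2 of 8 of complex III (-0.04), 9 of 17 of complex V (0.00) and 9 of 12 assembly factors (0.18), beside 7584 of 13494 genes tested (0.05). Counts by group means of percentiles over all members changed without DMSO replicate 2. Leaving it out took complex IV to 10 of 18, against 12 of 18 with it, complex I to 18 of 41, against 24, and complex V to 6 of 17, against 9. Complex II went to 1 of 4, against 2, complex III to 4 of 8, against 3, and the assembly factors to 8 of 12, against 9. Over all protein-coding genes the share by this measure was 38.7% without that library and 42.8% with it. That share includes the many genes without a summit in any library, which all count as lower, so the complex counts cannot be read against it. The median percentile of complex IV was 60.8, 63.7, 60.7 and 57.5 in pracinostat libraries and 55.0, 30.6 and 53.9 in DMSO libraries, without overlap. The gap of the group means was smaller without DMSO replicate 2, where complex IV averaged 54.4 ± 0.789 in the other 2 DMSO libraries, against 60.7 ± 2.52 in the pracinostat libraries. With windows at listed starts only, the groups overlapped, at 65.8, 70.7, 70.1 and 66.0 with pracinostat and 69.4, 66.1 and 67.1 with DMSO. They overlapped as well over the 11 complex IV genes that are not tissue-restricted, at 66.1 to 72.9 with pracinostat and 56.3 to 72.7 with DMSO. In complexes I, II and V the groups overlapped. Complex III was at 81.1, 81.9, 86.1 and 86.0 in pracinostat libraries and at 92.8, 85.0 and 88.9 in DMSO libraries, where the overlap rested on DMSO replicate 2. Its means were 83.8 ± 2.64 in pracinostat libraries and 88.9 ± 3.87 in DMSO libraries, and 90.8 ± 2.77 in DMSO libraries without replicate 2. With listed starts only, its 5 listed genes were at 78.7, 77.4, 83.5 and 84.9 with pracinostat and 93.7, 86.1 and 79.2 with DMSO. There the overlap came from DMSO replicate 3. These are descriptions with no test.

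Genes of the pathway outside the symbol rule ranked as high. The 12 other subunits, electron carriers and associated proteins had a median percentile of 83.4 ± 5.51 over 7 libraries. Among them cytochrome c (Cycs) was at 95.9, and its testis form Cyct had no summit in any library. The associated proteins include Atpif1, Higd1a, Higd2a, Dmac1 and Dmac2, and Dmac1 is counted among the other assembly factors as well. The 36 other assembly factors had a median percentile of 80.3 ± 2.16, the 18 tricarboxylic acid cycle genes 84.2 ± 3.56 and the 18 glycolysis genes 80.7 ± 3.31. The 19 regulators of mitochondrial transcription were lower, at 67.2 ± 16.5. The wide spread came mainly from DMSO replicate 2, where their median was 30.6, the value of genes with no summit. The regulators were at 73.4 ± 4.98 in pracinostat libraries and at 73.0 ± 0.548 in DMSO replicates 1 and 3. Among these, Gabpa was at 96.8, the orphan receptor gene Esrra at 92.6 and Nrf1 at 67.9, while Ppargc1a, the coactivator of mitochondrial biogenesis, was at 30.0. Of the tested genes of these 5 lists, 0 passed an adjusted p of 0.05 in limma in either direction, while unadjusted limma p-values under 0.05 counted 3 higher and 1 lower among the 36 other assembly factors tested, 2 higher among the 17 regulators tested, and 0 in the other 3 lists, beside 4.03% higher and 2.12% lower over all genes tested.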

How the data were processed

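H3K27ac and IgG CUT&Tag libraries of 4 pracinostat and 3 DMSO samples were used, grouped by the labels' treatment and antibody. Each deposited file lists the summits of 1 library with a −log10 significance score that the authors computed. The files do not say if it is based on p or q. Bowtie2, MACS2 2.2.9.1, DESeq2 and HOMER are named, with mm10, per the submitters' processing notes, without their roles. The sources used here give neither the read depth nor whether IgG entered the calling, and the number of summits stands for depth. The score grows with depth and is not normalized between libraries, so only ranks within a library were compared.

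Gene spans and promoters came from RefSeq tables of GRCm38.p6; the span table gives no strand, and 82 of the 100 members matched a promoter entry. Each gene took its highest score within 1000 bp of either end. Percentiles gave tied genes their mean rank, and had 27 to 174 distinct values per library. Normal scores of genes with a summit in at least 3 libraries were compared in R 4.3.3 by limma 3.58.1, with a robust variance trend (statmod 1.5.0) and Benjamini-Hochberg adjustment at 0.05. The fit was checked on simulated data. Tables were made with Python 3.11.15, numpy 2.4.6, pandas 2.3.3 and scipy 1.17.1.

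The text names, by rule, the 4 members with the smallest p in each direction, the 2 highest and 2 lowest of each complex and of the assembly factors, members without a summit, core subunits and isoform families. A gene that this rule names is not reported here. Others (Cox7b, Ndufb4, Ndufab1, Atp5k, partners in shared windows, genes of the pathway lists and genes with a library that stands apart) were chosen after their values were seen. The members and the lists were chosen with earlier results of these data known, so no list has a test of its own. Alternatives were other windows (500 bp, 2.5 kb, whole gene), the 30000 highest summits, ranks among genes with a summit, no filter, a filter of all 7 libraries, other variance settings, list length as a covariate, a replicate block, each library left out, and listed starts only, which was added after the data were seen. Same-numbered pracinostat and DMSO samples did not deviate together (correlations of -0.0472, 0.0176 and -0.00941 for numbers 1 to 3 over 13494 genes), and the main fit did not pair them. Differently numbered samples gave correlations between -0.0639 and 0.0907. With groups of 4 and 3 samples this check cannot exclude a pairing.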

Additional observations from a re-analysis of the deposited data

Results flagged for a closer look

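In 5 of the 57 gene and group combinations examined, 1 of the 4 pracinostat libraries lay far from the other 3. Chance alone marks about 1 in 20 such groups where the values are normally distributed and independent. Percentiles have a tied floor and a ceiling, so the count of 5 cannot be set against that rate. Atp5b was at 86.6 in pracinostat replicate 2 and between 81.0 and 81.9 in the others. Atp5d was at 60.0 in pracinostat replicate 3, against 69.9 to 72.0. Atp5j was at 91.5 in pracinostat replicate 4, against 97.9 to 98.2. Cox7a2 was at 52.0 in pracinostat replicate 4, the 1 library with a summit at its gene ends, against 19.9 to 20.8. Sdhaf1 was at 85.7 in pracinostat replicate 3, while the lowest of the others was 97.6. The cause was not tested in any of these.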

How the results depend on the processing

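The number of members passing an adjusted p of 0.05 was 0 in limma and in each of 19 alternatives, in which the lowest adjusted p of a member ran between 0.316 and 0.953 and 1 to 9 members had an unadjusted p under 0.05. With the replicate number as a block (replicate block), 0 members passed. Among all genes 0 passed in the analysis reported, 3 with the replicate block, 3 with no filter and 1 with the 30000 highest summits. Complex medians moved by more than the spread between libraries as follows. Complex I was at 83.3 with 500 bp windows, 78.7 with 2.5 kb windows and 75.8 with the whole gene, where complex III was at 81.4 and complex V at 82.3. Ranked among genes with a summit only, complexes I, II, III and V were at 70.1, 84.5, 77.3 and 77.3, which follows from leaving out genes at the bottom. With the 30000 highest summits of each library, complex IV was at 36.6 and 72.0% of members had a summit. Complex IV was at 67.9 with listed starts only and at 67.7 without tissue-restricted isoforms. The difference between treatments in the members' median percentile was 1.25, and between -0.0885 and 1.97 with 1 library left out, with the negative value without DMSO replicate 2. With 1 library left out, complexes I to V were at 80.8 to 81.7, 89.6 to 91.6, 84.8 to 86.8, 53.1 to 58.6 and 85.5 to 86.8. Leaving out 1 of 7 libraries cannot move such a mean, or the mean of a gene, beyond the spread between libraries. It is therefore no test of how stable these means are. The other causes were not tested. The short summit list limits DMSO replicate 2 most, where 61.2% of genes had no summit and 16 members shared the lowest score.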
